A study of Homo sapiens with 6 samples.

Results

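Accessible chromatin around 8 genes that restrain mitogen-activated protein (MAP) kinase signalling was examined by DNase-seq in A549, a cell line from a human lung adenocarcinoma. In this assay the nuclease DNase I cuts open chromatin and the released ends are sequenced. For 1 h, cells were exposed either to the synthetic glucocorticoid dexamethasone at 100 nM or to the vehicle, ethanol at 0.02%, and each treatment had 3 libraries. The data were 6 lists of called peaks in hg19 coordinates, 1 per library, with 58360 to 60646 peaks in the dexamethasone libraries and 58281 to 61344 in the ethanol libraries. Joining peaks of different lists that overlapped by 1 bp or more gave 81216 regions, of which 121 had a base within 100 kb of 1 of the gene starts. The starts lay at chr5:172198203 (DUSP1), chr8:29208267 (DUSP4), chr10:112257625 (DUSP5), chr12:89746296 (DUSP6), chr1:221915518 (DUSP10), chr1:8086393 (ERRFI1), chr13:80915086 (SPRY2) and chr5:141704620 (SPRY4). A library is said to call a region if its list has a peak there. Where it has none, the signal stayed below the cut-off of peak calling, which does not show that the chromatin was closed. Read depth is unknown, since the lists hold no counts. The labels do not say whether libraries came from separate cultures, so p-values measure only the spread between these libraries, which may be technical. Whether these libraries carry the marks of lung epithelium was not tested, because hg19 positions of marker genes were not used here.

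Signals from growth factor receptors and stress sensors pass through chains of kinases that end in the MAP kinases ERK, JNK and p38. Cells limit these signals with inhibitors whose genes are themselves switched on by the pathway. The DUSP proteins are phosphatases that remove the activating phosphates from MAP kinases. ERRFI1 (also MIG6) binds and inhibits the EGF receptor, and the Sprouty proteins SPRY2 and SPRY4 dampen signalling between receptor kinases and ERK. DUSP1 is a well-known glucocorticoid-induced gene, and its product is one route by which glucocorticoids limit inflammatory MAP kinase signalling.

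The starts of DUSP1, ERRFI1, DUSP10 and DUSP6 each lay inside a region called in all 6 libraries, and the 250 bases before each start are shown because that region held them. The letters are those of RefSeq in GRCh38.p14, all on the minus strand, read 5′ to 3′ toward the gene, at chr5:172771196-172771445, chr1:8026310-8026559, chr1:221742090-221742339 and chr12:89352502-89352751 in the order printed. Capitals mark matches, on either strand, to the searched motifs.
DUSP1: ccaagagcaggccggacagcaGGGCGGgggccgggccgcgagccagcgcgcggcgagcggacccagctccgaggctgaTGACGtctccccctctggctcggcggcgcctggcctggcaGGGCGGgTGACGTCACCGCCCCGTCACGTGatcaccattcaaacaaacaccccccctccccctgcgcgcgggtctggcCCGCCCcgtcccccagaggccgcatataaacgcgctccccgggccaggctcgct
ERRFI1: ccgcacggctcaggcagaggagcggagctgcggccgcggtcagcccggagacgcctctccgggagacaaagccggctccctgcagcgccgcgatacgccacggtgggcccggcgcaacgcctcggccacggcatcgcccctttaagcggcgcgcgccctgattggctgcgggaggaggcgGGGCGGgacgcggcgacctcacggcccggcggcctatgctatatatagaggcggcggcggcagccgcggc
DUSP10: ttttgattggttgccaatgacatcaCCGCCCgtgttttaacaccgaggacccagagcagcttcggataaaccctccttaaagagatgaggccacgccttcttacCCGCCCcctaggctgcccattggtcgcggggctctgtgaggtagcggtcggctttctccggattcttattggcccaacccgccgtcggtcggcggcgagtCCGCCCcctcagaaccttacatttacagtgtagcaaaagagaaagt
DUSP6: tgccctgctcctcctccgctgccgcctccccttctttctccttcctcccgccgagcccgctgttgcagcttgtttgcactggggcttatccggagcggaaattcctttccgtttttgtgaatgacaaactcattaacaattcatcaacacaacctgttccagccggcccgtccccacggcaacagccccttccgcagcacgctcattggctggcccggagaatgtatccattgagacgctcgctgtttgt

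The DUSP1 stretch held the full cyclic AMP response element TGACGTCA 1 time, which 1.65% of the 35116 promoter entries of the RefSeq table hold in the same window. The shorter core TGACG matched at 4 places, of which 2 lie within the full element, and 21.2% of the entries hold this core. An E-box, CACGTG, overlapped another TGACG match and is held by 6.34% of the entries. The SP/KLF letters CCGCCC matched 4 times in DUSP1, 3 times in DUSP10, 1 time in ERRFI1 and 0 times in DUSP6 (42.6% of the entries hold them). The other motifs had no match in the 4 stretches: the glucocorticoid receptor element (GNACA and TGTNC with 3 free bases between, in 0.328% of the entries), its single arm AGAACA (12.4%), the AP-1 element TGANTCA (6.57%) and the ETS element CCGGAAGT (3.42%). Bases G and C made up 74.4% of the DUSP1, 75.2% of the ERRFI1, 56.4% of the DUSP10 and 57.2% of the DUSP6 stretch, against a median of 58% over all entries. These matches are letters in a window and say nothing of what binds there.

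The 8 loci differed in how many accessible regions they held. DUSP1 had 30 regions, ERRFI1 25, DUSP5 22, DUSP4 15, DUSP10 13, SPRY4 9, SPRY2 4 and DUSP6 3, where the median 200 kb bin of the genome with any region held 6. Of all such bins, 99.7% held fewer regions than the DUSP1 window and 23.4% fewer than the DUSP6 window. Other genes lie nearby. In the RefSeq table for GRCh38, coding neighbours were sought within 100 kb of each gene's whole span, which reaches beyond the window around its start. They were NEURL1B and ERGIC1 for DUSP1, KIF13B for DUSP4, SMC3 for DUSP5, POC1B and POC1B-DUSP6 for DUSP6, and UTS2, TNFRSF9 and PARK7 for ERRFI1. DUSP10, SPRY2 and SPRY4 had 0. Given the neighbours at the other genes, no region is assigned to a gene here beyond its distance. The last region inside the DUSP1 window lay 99.2 kb from the start and was called by no dexamethasone library and 1 ethanol library, and the first outside lay at 110.6 kb and was called by 3 dexamethasone libraries and no ethanol library. At DUSP5 the regions on either side of the limit, at 98.8 and 101.7 kb, were each called in all 6 libraries, whereas at SPRY2 no region lay between 38.4 and 128.8 kb.

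Regions called in every library of one treatment and none of the other lay at 4 of the 8 genes, with 3 dexamethasone-only regions at DUSP1 and DUSP5 and 2 ethanol-only regions at DUSP4 and ERRFI1. All 6 libraries called 58 of the 121 regions (47.9%, against 49.2% of all regions of the genome), and a single library called 23 (19.0%, against 18.9%). Regions called in 3 of 3 dexamethasone and 0 of 3 ethanol libraries numbered 3 (2.48%), where the genome-wide share was 1.10%, and the reverse held for 2 (1.65%), where it was 0.662%. With 1 call by the other treatment allowed, 5 of the 121 regions leaned to dexamethasone and 3 of the 121 to ethanol. Over all regions of the genome these shares were 2.33% and 2.40%. Regions called in more dexamethasone than ethanol libraries numbered 27 (22.3%, against 19.7%) and the reverse 25 (20.7%, against 22.5%). With 3 libraries against 3, an exact permutation test of the calls of a single region cannot give a p under 0.1, so these calls carry no p-value.

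**Figure D1:**
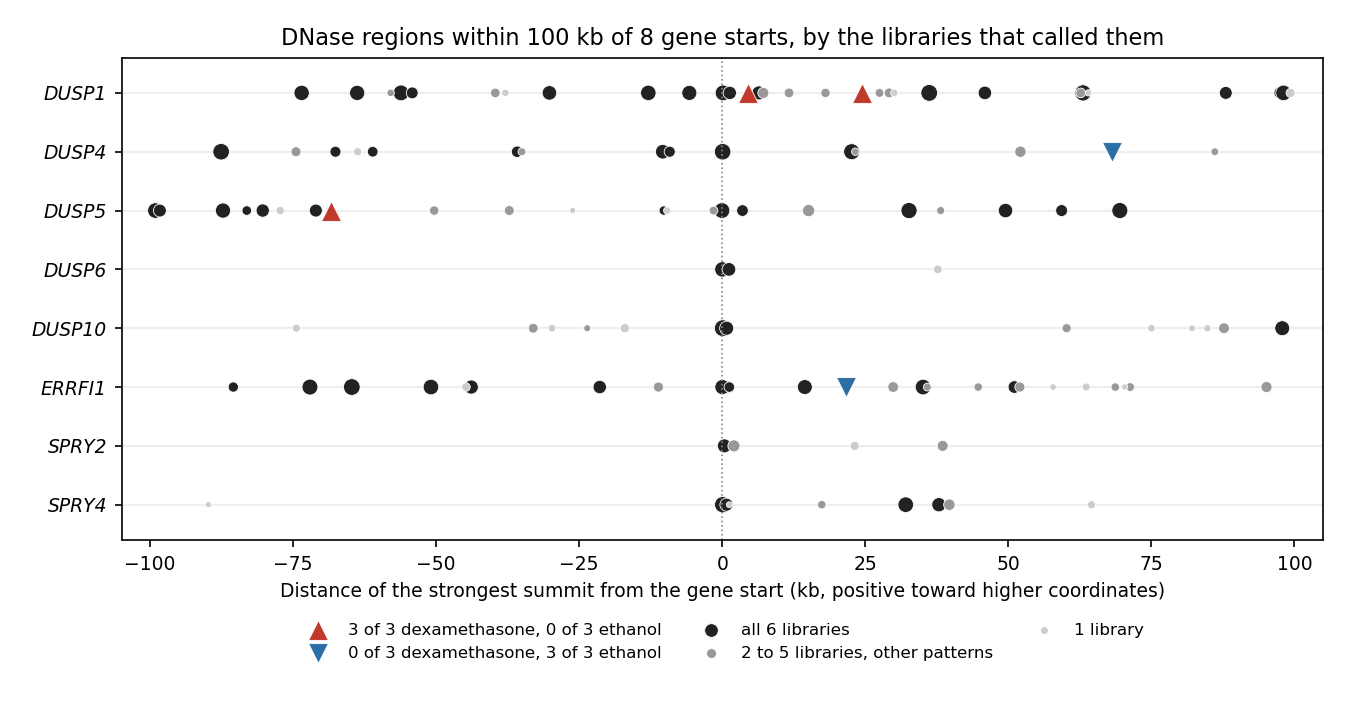
Each symbol is 1 of the 121 regions, placed by the distance in kb of its strongest summit from the gene start (positive toward higher coordinates), with 1 row per gene. Circles grow with the mean percentile of −log10 q and are black for the 58 regions called in all 6 libraries; red and blue triangles of fixed size mark the 3 dexamethasone-only and 2 ethanol-only regions, and both red triangles in the DUSP1 row lie upstream of that minus-strand gene.

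The number of peaks near each gene did not separate the treatments. Over the 8 windows, the dexamethasone libraries held 88, 91 and 89 peaks and the ethanol libraries 77, 93 and 91 (means 89.3 ± 1.5 and 87.0 ± 8.7, SD, n = 3 each). Ethanol replicate 1 had the lowest count, and without it the difference of 2.33 peaks turned to −2.67. Its list was the shortest, but with 58281 peaks only slightly shorter than the 58360 of dexamethasone replicate 1, which held 88 here. With all lists cut to the length of the shortest, the difference was 4 peaks. For single genes the difference between treatments ranged from −0.33 peaks at DUSP4 and SPRY2 to 1.00 at DUSP5, where the dexamethasone libraries held 19, 19 and 19 and the ethanol libraries 16, 20 and 18 (exact two-sided permutation p = 0.7 with n = 3 each, and adjusted p = 1 over 8 genes for this and every other gene). Peaks covered 35268 ± 1294 bases of the 8 windows with dexamethasone and 34509 ± 2970 with ethanol (SD of 3 libraries each), and for single genes the adjusted p of the same exact test on covered bases was 0.9 throughout. With 3 libraries against 3 the smallest p this test can give is 0.1.

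DUSP1 encodes a nuclear phosphatase that acts on ERK, JNK and p38. It was the one gene of the 8 with more than 1 dexamethasone-only region, 2 of 30 (6.67%, against 1.10% of all regions). It also held the most regions of the 8. Of the 30, 8 (26.7%) were called in more ethanol than dexamethasone libraries and 5 (16.7%) in more dexamethasone libraries. Over all regions of the genome these shares were 22.5% and 19.7%. The nearer dexamethasone-only region, chr5:172202549-172202825 in hg19, had its summit 4.48 kb upstream of the start. Its fold enrichment, the deposited ratio of the peak's signal to its local background, was 4.34, 3.38 and 3.35 in the dexamethasone libraries, and no ethanol library had a peak. The −log10 q of these peaks was 23.6, 10.2 and 8.54. The region stood at a mean percentile of 31.7 of −log10 q within its lists, where the median dexamethasone-only region of the genome stood at 24.7. The nearest ethanol peak was 1.65 kb away, in a region that all 6 libraries called.

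The second, chr5:172222427-172222750, had its summit 24.4 kb upstream, 19.9 kb beyond the first. Its fold enrichment was 5.23, 3.62 and 3.15 in the dexamethasone libraries, with no ethanol peak within 2.67 kb. It was the weaker of the pair within its lists, with a mean percentile of 16.8 and −log10 q of 15.6, 6.80 and 5.17. In both regions dexamethasone replicate 1 had the highest value and replicate 3 the lowest. Both were called in the dexamethasone libraries alone under each of 5 other settings of peak threshold, list length, merging and cover. The same held with any 1 library left out. A higher threshold, a shorter list or 1 library fewer cannot add an ethanol peak, so the unchanged calls are no further support.

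Of the 30 DUSP1 regions, 16 were called in all 6 libraries (53.3%, against 49.2% of all regions), and 20 of the 30 had their summit upstream of the start. The region with the highest mean percentile of −log10 q, chr5:172234176-172234655, lay 36.2 kb upstream and had a fold enrichment of 16.5, 16.0 and 15.3 with dexamethasone and of 14.9, 17.5 and 17.2 with ethanol, so the treatments overlapped. The region over the start itself, chr5:172198097-172198639, reached from 106 bases inside the gene to 436 bases upstream. It had 7.63, 7.57 and 5.92 in the dexamethasone libraries and 8.02, 9.22 and 9.11 in the ethanol libraries, so every dexamethasone value lay below every ethanol value.

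Differences of this kind were tested in 1 limma fit over all 39934 regions called in 6 libraries, on the quantile-normalized log2 fold enrichment. In that fit 2 regions (0.00501%) were higher with dexamethasone and 0 (0.00%) lower at an adjusted p under 0.05 (0 and 0 with any library other than ethanol replicate 1 left out), while 2985 (7.47%) had an unadjusted p under 0.05. None of the 58 regions near the 8 genes passed, and the lowest adjusted p among them was 0.158, which does not show that their values did not differ. At an unadjusted p under 0.05 there were 6 of the 58 regions (10.3%), 1 higher and 5 lower with dexamethasone, against 3.71% higher and 3.76% lower over all regions. The DUSP1 start region had a log2 difference of −0.32 ± 0.11 (SE, limma unadjusted p = 0.0212, adjusted p = 0.547).

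**Figure D2:**
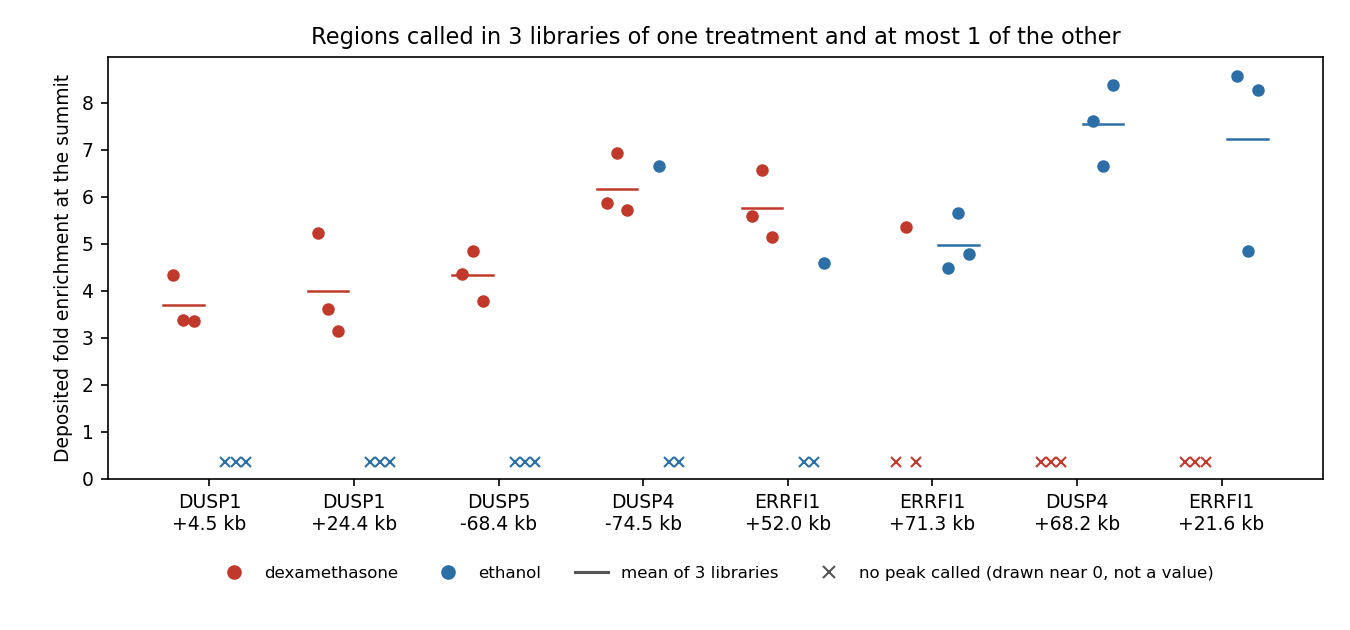
Each point is the deposited fold enrichment of 1 library in the 8 regions that 3 libraries of one treatment and at most 1 of the other called, dexamethasone left (red) and ethanol right (blue), with the mean where all 3 had a peak; labels give the gene and the summit's distance from its start. Crosses near 0 mark libraries without a called peak and are no values; the 3 dexamethasone-only regions sit at 3.15 to 5.23 and the 2 ethanol-only regions at 4.84 to 8.57.

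DUSP5 encodes a nuclear phosphatase specific for ERK. Its dexamethasone-only region, chr10:112188978-112189398, lay 68.4 kb from the start toward lower coordinates. The fold enrichment was 4.36, 4.85 and 3.78 in the dexamethasone libraries, with no peak in the ethanol libraries. At a mean percentile of 38.4 it was the strongest of the 3 dexamethasone-only regions within its lists. A region that all 6 libraries called lay 1.98 kb away. Farther out on the same side, chr10:112177129-112177498 had 6.40, 6.28 and 7.18 with dexamethasone and 5.51, 5.56 and 5.76 with ethanol, so the treatments did not overlap. Its log2 difference, 0.25 ± 0.11 (SE), was the highest of the 58 regions but did not pass (limma unadjusted p = 0.0419, adjusted p = 0.638).

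The DUSP5 start lay in chr10:112257326-112257792, with 7.35, 8.82 and 7.65 in the dexamethasone libraries and 7.68, 8.05 and 7.65 in the ethanol libraries. Here the treatments overlapped fully (log2 difference 0.03 ± 0.10, SE). The DUSP5 region with the highest percentile of −log10 q (87.0) lay 32.6 kb toward higher coordinates and likewise overlapped, with fold enrichments of 12.6, 12.1 and 9.25 with dexamethasone and 10.8, 11.2 and 10.7 with ethanol. A region at 69.5 kb, singled out after its values were seen, stood close behind by percentile (85.5) and had 10.8, 11.9 and 11.3 with dexamethasone and 12.8, 12.5 and 12.1 with ethanol. There every dexamethasone value lay below every ethanol value, and the log2 difference was −0.15 ± 0.10 (SE, limma unadjusted p = 0.157, adjusted p = 0.821). A further region at 59.3 kb had 7.34, 7.83 and 9.45 with dexamethasone against 8.47, 7.14 and 5.70 with ethanol, and its log2 difference of 0.23 ± 0.17 (SE) was within the spread between libraries. Of the 13 DUSP5 regions called in all 6 libraries, 9 had a positive and 4 a negative log2 difference, with a median of 0.03.

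DUSP4 is another nuclear phosphatase of the family. Its 8 regions called in 6 libraries all had a negative log2 difference, although 1 of them was positive with median centring, without normalization or with −log10 q. The values ran from −0.60 to −0.0044, with a median of −0.17 where the median over all regions was 0.00004. Neighbouring regions in the same libraries are not independent, and none of the 8 passed the test. The lowest was chr8:29140448-29140892, 67.6 kb toward lower coordinates, with 4.58, 5.92 and 4.77 in the dexamethasone libraries and 8.23, 7.37 and 7.67 in the ethanol libraries. The treatments were clear of each other there (log2 difference −0.60 ± 0.12, SE, limma unadjusted p = 0.000622, adjusted p = 0.194).

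The DUSP4 start region, chr8:29208033-29208763, had 9.62, 7.91 and 8.55 with dexamethasone and 10.6, 9.77 and 10.4 with ethanol, again without overlap (log2 difference −0.24 ± 0.11, SE, limma adjusted p = 0.697). The ethanol-only region, chr8:29276268-29276548, lay 68.2 kb toward higher coordinates and had 7.61, 6.65 and 8.38 in the ethanol libraries, with no dexamethasone peak within 15.7 kb. It stood at a mean percentile of 40.9, the highest of the 5 one-sided regions at these genes and above the median of 19.9 for ethanol-only regions of the genome. A region 74.5 kb toward lower coordinates was called in all dexamethasone libraries (5.86, 6.93 and 5.73) and in ethanol replicate 1 alone (6.65). The region of the window with the highest percentile, 87.6 kb toward lower coordinates, had 15.7, 15.8 and 12.6 with dexamethasone and 13.8, 14.8 and 14.7 with ethanol, which overlapped.

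DUSP6, a cytoplasmic phosphatase specific for ERK, and DUSP10, which acts on JNK and p38, had no one-sided region. The DUSP6 window held 3 regions, of which 2 were called in all 6 libraries, both at or within 1.18 kb of the start. The start region, chr12:89746136-89746609, had 7.32, 6.18 and 7.28 with dexamethasone and 6.46, 7.14 and 7.58 with ethanol. The DUSP10 start region, chr1:221915310-221915866, had 13.0, 12.8 and 13.2 with dexamethasone and 12.8, 12.1 and 13.0 with ethanol. It was the strongest of all 121 regions within its lists, at a mean percentile of 96.2. In both start regions the treatments overlapped, with log2 differences of −0.01 ± 0.12 at DUSP6 and 0.03 ± 0.10 at DUSP10 (SE). Of the 13 DUSP10 regions, 3 were called in all 6 libraries (23.1%, against 49.2% of all regions), and 6 were called in a single library (46.2%, against 18.9%).

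ERRFI1, the inhibitor of the EGF receptor, had 3 of 11 regions called in 6 libraries in which every dexamethasone value was below every ethanol value, DUSP4 had 3 of 8, and over the genome the share was 5.59%. Its start region, chr1:8085941-8086693, had 7.69, 7.72 and 8.07 in the dexamethasone libraries and 9.82, 10.6 and 11.1 in the ethanol libraries. The dexamethasone values were close together and all below the ethanol values, and the log2 difference was −0.42 ± 0.10 (SE), a ratio of 0.748 (limma unadjusted p = 0.00212, adjusted p = 0.290). A region 51.1 kb upstream, chr1:8137186-8137616, had 6.53, 5.43 and 6.10 with dexamethasone and 8.94, 9.55 and 9.22 with ethanol, without overlap. Its log2 difference of −0.61 ± 0.11 (SE), a ratio of 0.653, was the lowest of the 58 regions, and it had the lowest p of them (limma unadjusted p = 0.000322, adjusted p = 0.158). With 1 library left out or another setting, the adjusted p of this region ranged from 0.153 to 0.445.

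Only 0.956 kb beyond that region, chr1:8138258-8138594 leaned the other way: all dexamethasone libraries called it (5.60, 6.58 and 5.14), as did ethanol replicate 3 (4.60). The ethanol-only region of the gene, chr1:8107780-8108222, lay 21.6 kb upstream, with 8.57, 4.84 and 8.27 in the ethanol libraries and no dexamethasone peak within 6.76 kb. At 71.3 kb upstream, a region was called in dexamethasone replicate 2 alone (5.37) and in all ethanol libraries (4.49, 5.66 and 4.78). A region 95.1 kb upstream, singled out after its values were seen, had 7.05, 6.65 and 7.12 with dexamethasone and 4.68 and 3.97 in ethanol replicates 1 and 2, with no peak in replicate 3. In a fit that also took regions called in at least 2 libraries per treatment, which held 74 regions near the 8 genes, its log2 difference was 0.69 ± 0.13 (SE, limma unadjusted p = 0.000737, adjusted p = 0.218). The ERRFI1 region with the highest percentile, chr1:8021340-8022081, lay 64.7 kb downstream of the start, and its values overlapped, with 18.7, 18.4 and 15.8 with dexamethasone and 15.5, 14.7 and 15.9 with ethanol.

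The Sprouty genes SPRY4, with 9 regions, and SPRY2, with 4, had no one-sided region. The SPRY4 start region, chr5:141704149-141705066, had 8.62, 10.1 and 9.65 with dexamethasone and 10.03, 8.88 and 9.29 with ethanol, which overlapped (log2 difference 0.02 ± 0.11, SE). At SPRY2 no region covered the start. The nearest, chr13:80915152-80915679, began 66 bases upstream and had 7.39, 6.92 and 7.92 with dexamethasone and 6.44, 7.41 and 5.83 with ethanol. It was the one SPRY2 region called in all 6 libraries, and its treatments overlapped (log2 difference 0.20 ± 0.12, SE, limma adjusted p = 0.808).

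**Figure D3:**
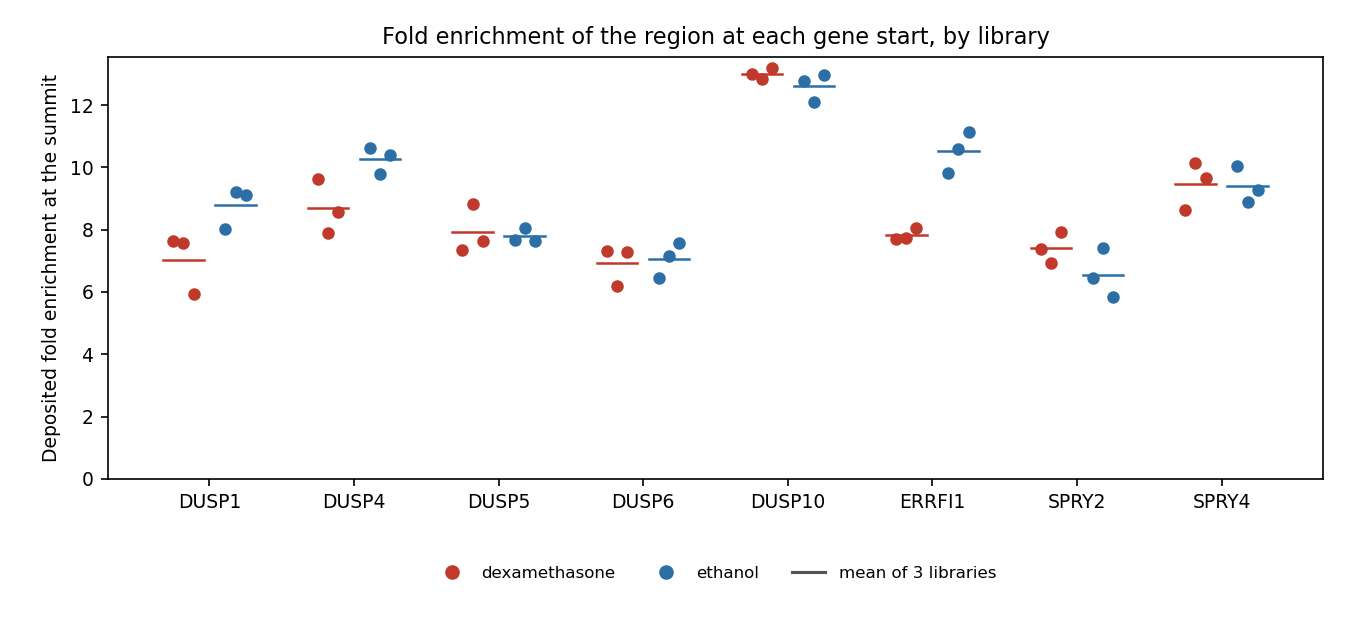
Each point is the deposited fold enrichment of 1 library in the region at a gene start (for SPRY2 the nearest region), dexamethasone left (red) and ethanol right (blue), with bars at the means of 3 libraries. At DUSP1, DUSP4 and ERRFI1 the 3 dexamethasone points lie below the 3 ethanol points, as with 7.69 to 8.07 against 9.82 to 11.1 at ERRFI1, and at the other 5 genes they overlap.

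Across the 8 start regions, mean fold enrichment with dexamethasone was highest at DUSP10 (13.0 ± 0.17, SD, n = 3) and followed by SPRY4 (9.47 ± 0.77), DUSP4 (8.69 ± 0.86), DUSP5 (7.94 ± 0.78), ERRFI1 (7.83 ± 0.21), SPRY2 (7.41 ± 0.50), DUSP1 (7.04 ± 0.97) and DUSP6 (6.93 ± 0.65). Beyond DUSP10, each neighbour in this order lay within the spread between libraries. With ethanol the order was DUSP10 (12.6 ± 0.45, SD, n = 3), ERRFI1 (10.5 ± 0.66), DUSP4 (10.3 ± 0.44), SPRY4 (9.40 ± 0.59), DUSP1 (8.78 ± 0.66), DUSP5 (7.79 ± 0.22), DUSP6 (7.06 ± 0.56) and SPRY2 (6.56 ± 0.80). At 3 of the 8 starts, those of DUSP1, DUSP4 and ERRFI1, every dexamethasone value was below every ethanol value.

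The same holds for 8 of all 58 regions called in 6 libraries (13.8%), against 5.59% of such regions in the genome, and the reverse for 3 (5.17%), against 5.73%. The 8 were divided into 3 at ERRFI1, 3 at DUSP4, 1 at DUSP1 and 1 at DUSP5, and the 3 into 2 at DUSP5 and 1 at DUSP1. After quantile normalization there were 9 and 4 such regions among the 58, where the genome-wide shares were 5.92% and 6.20%. Over all 58, 26 log2 differences were positive and 32 negative, with a median of −0.0097, and with median centring the split was 31 and 27.

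**Figure D4:**
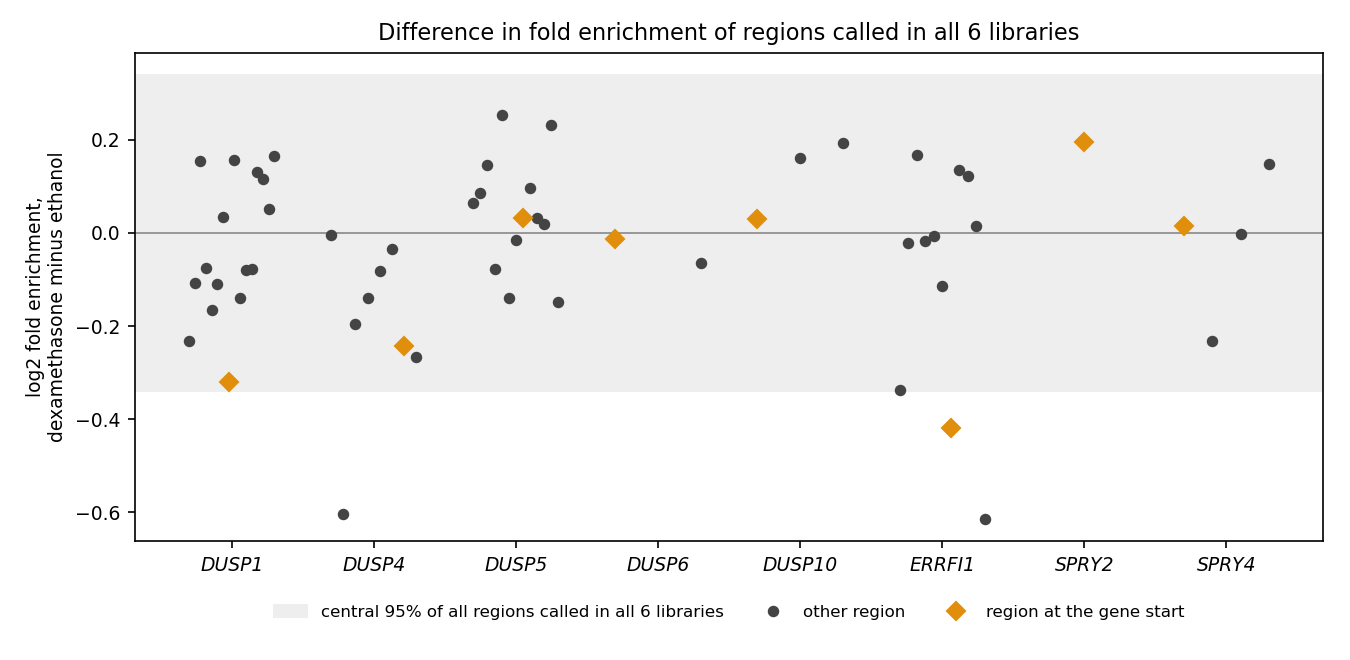
Each symbol is the log2 fold enrichment with dexamethasone minus ethanol (quantile-normalized) of 1 of the 58 regions called in all 6 libraries, ordered within a gene by position, with orange diamonds for the regions at or nearest to the start. The grey band holds the central 95% of all 39934 regions, −0.34 to 0.34; the regions below it are 1 at DUSP4 and 2 at ERRFI1, with the ERRFI1 start among them, and none lies above it.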

How the data were processed

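Peak lists were deposited in hg19 coordinates, and MACS2 2.1.0, CASAVA 1.3, bedtools and Bowtie appear in the submitters' processing notes with no settings. Peak names count up from 1 in every deposited list, so calling was per library as far as the files show. The deposited ratio column, read by the narrowPeak layout, is a peak's fold enrichment over local background. Deposited p-values and q-values are on the −log10 scale, with a lowest −log10 q of 2.51 to 2.71 per list. The deposited score was not used. The summit is another deposited column. No deposited column holds read counts, so depth and counting error are unknown.

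Libraries were grouped by title. Peaks sharing at least 1 bp were merged (Python 3.11.15, pandas 2.3.3), and the highest fold per region and library was taken. Peak numbers and covered bases were compared by exact two-sided permutation tests (scipy 1.17.1). Log2 fold enrichment was quantile normalized and fitted with limma 3.58.1 without a pseudocount, with Benjamini-Hochberg adjustment over all 39934 regions called in 6 libraries. The fit was tested on simulated data. Regions were named by rule: the region at each start, the one with the highest mean percentile of −log10 q per gene, those called in 3 libraries of one treatment and at most 1 of the other, and the 3 highest and 3 lowest log2 differences. The members, the motifs and the rule were chosen with earlier results of these data known. A planned comparison with other pathway genes needs hg19 gene starts, which were not used here. Promoter letters come from RefSeq (GRCh38.p14) and were available for 6 of the 8 genes. Of those 6, SPRY2, whose start is in no region, and SPRY4, whose entry begins inside the gene's span, are not shown. Deviations of equally numbered libraries had correlations of 0.172, 0.0938 and 0.116, and those of unlike numbers ran from −0.137 to 0.00956. The labels do not say what equal numbers share, so numbers were not taken as pairs in the main tests.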

Additional observations from a re-analysis of the deposited data

How the results depend on the processing

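The 5 one-sided regions kept their calls under all 11 alternatives run on them. Leaving out a library could not have changed this, and a higher threshold or shorter list can add no peak of the other treatment. The unchanged calls are therefore no further support for these regions. No fitted region near the 8 genes passed the limma threshold under any of 15 alternatives, some of which fitted another set of regions than the 58. The lowest limma adjusted p of a setting lay between 0.153 and 0.408. With a 50 kb window there were 68 regions, 33 called in 6 libraries and 1 ethanol-only, and the difference (dexamethasone minus ethanol) was −0.667 peaks at ERRFI1 and −278 covered bases at ERRFI1, −283 at DUSP5 and −151 over the 8 genes. Genome-wide, the regions higher with dexamethasone numbered 1 with lists of equal length, 5 with median centring, 4 without normalization and 0 to 2 with 1 library left out. By replicate number, 7 regions near the 8 genes were gained with dexamethasone in at least 2 of 3 numbered pairs and lost in none, and 4 showed the reverse. This rule is looser than that of the one-sided regions and was not counted over the genome, so these counts have no background share. With the number as a block in the limma fit, 1 region of the genome was higher. In that fit 3586 regions had an unadjusted p under 0.05, against 2985 without the block. The pairing changed no other call. The labels give equal numbers without saying what they share. Every library correlated best with its own number, which is a hint from the data, not from the design.

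With 1 library left out, peak differences ranged from −1.17 to 1.33 at DUSP1, −0.667 to 1.33 at DUSP10, −0.833 to 0.167 at SPRY2 and −2.67 to 5.33 over the 8 genes. Covered bases ranged from −444 to 523 at DUSP1, −92.8 to 425 at DUSP4, −148 to 154 at DUSP6, −8.67 to 472 at DUSP10, −81.7 to 372 at ERRFI1, −165 to 115 at SPRY2, −438 to 236 at SPRY4 and −941 to 1803 over the 8 genes. Log2 differences ranged from −0.020 to 0.088 at the DUSP5 start, −0.075 to 0.091 at the DUSP6 start, −0.018 to 0.066 at the DUSP10 start, −0.038 to 0.085 at the SPRY4 start, −0.045 to 0.062 in the DUSP4 region at 87.6 kb and −0.041 to 0.13 in the DUSP5 region at 32.6 kb. That DUSP4 region was 0.027 with median centring, 0.018 without normalization and 0.062 with −log10 q in place of fold enrichment, which also gave −0.10 in that DUSP5 region and −0.090 at the SPRY4 start. The causes were not tested. With lists cut to the length of the shortest, the differences over the 8 genes were 4 peaks and 1212 covered bases, against 2.33 and 758 with full lists. At unknown depth, a missing peak near the calling threshold cannot be told apart from a weak one.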
